A study of Homo sapiens with 9 samples.

Results

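All 19893 peaks of the RUNX1 list of untreated DND-41 cells are described here: how wide they are, how they are spaced and grouped along the chromosomes, and which marks lie on grouped and on lone peaks. No value of the peaks was used to choose among them, and they are 19893 of the 183634 peaks in the 5 lists of the series. Of the RUNX1 peaks, 9044 (45.5%) stood alone, 4838 (24.3%) lay in pairs and 6011 (30.2%, 95% interval 29.6 to 30.9) lay in 1540 clusters of 3 or more. Clustered peaks lay on the promoter mark H3K4me3 less often than single peaks (34.5% against 46.0%) and in the activity mark H3K27ac more often (89.5% against 79.0%).

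DND-41 is an established human cell line of T-cell acute lymphoblastic leukemia. Its chromatin was profiled by CUT&RUN, in which an antibody guides a nuclease to its target and the released fragments are sequenced. The RUNX1, BRG1 and H3K4me3 libraries carry no treatment label, while H3K27ac was profiled after 100 nM ACBI-1, labelled ACBI, and after DMSO as its control. ACBI-1 is a small molecule that brings about the degradation of the SWI/SNF ATPases SMARCA2 and SMARCA4, and BRG1 is the product of SMARCA4. Each target and condition has 1 library with a peak list, and no replicate: the titles of the H3K27ac libraries carry the number 2, and no other library of these groups is analysed here. The 4 control libraries, 3 titled as IgG and 1 as the input for RUNX1, are also not analysed here.

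RUNX1 is the DNA-binding subunit of core-binding factor. It recognises DNA through its Runt domain together with its partner CBFB, is required for the formation of blood stem cells and for T-cell development, and is altered or required in several leukemias. Lineage factors of this kind often bind several nearby elements of the same enhancer region, which is why peaks within a set distance are joined, or stitched, in the definition of super-enhancers. That definition also ranks regions by signal, which these positions do not hold, so no region is called a super-enhancer here.

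The lists give positions in hg19 only, without read counts, so the depth behind a peak is unknown and no site has an error of its own. Intervals of shares are exact Clopper-Pearson 95% intervals over peaks. They cover counting error only, take neighbouring peaks as independent, and say nothing of the spread between cultures. No test was made, since every group holds 1 library. The lists were made with different settings, so their peak numbers are not measures of how much of each target is bound. No hg19 annotation was used here, so peaks carry no gene names and the labelled cell type was not checked against its marker genes.

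The RUNX1 peaks were mostly narrow. Their width had a median of 402 bp with quartiles of 244 and 598 bp, and ran from 175 to 3346 bp. The narrowest width was also a common one: 1154 peaks (5.80%) measured exactly 175 bp. At the other end, 1369 peaks (6.88%) reached 1 kb, 80 reached 2 kb and 7 reached 3 kb. BRG1 peaks were narrower, with a median of 284 bp, and H3K4me3 peaks wider, with a median of 1420 bp, each under its own settings.

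The widest RUNX1 peak, at chr9:132649194-132652539, measured 3346 bp, belonged to a cluster of 7 and lay entirely in H3K27ac of both conditions. The next lay at chr8:101962538-101965802 and was the widest of the single peaks, 3265 bp long, 48210 bp from any other RUNX1 peak and covered over its whole length by H3K4me3. Next in width were chr17:32691561-32694789 (3229 bp, in a cluster of 11), chr18:60764860-60768018 (3159 bp, in a pair) and chr4:71541688-71544838 (3151 bp, in a cluster of 6). None of these 3 touched H3K4me3, and all 5 of the widest peaks lay in H3K27ac under DMSO and under ACBI. The other long single peaks, chr4:109403526-109406140 (2615 bp) and chr8:96008768-96011335 (2568 bp), also lay off H3K4me3 and each overlapped a BRG1 peak.

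Wider RUNX1 peaks carried BRG1 more often. Of the 5203 peaks under 250 bp, 13.9% overlapped a BRG1 peak, and of the 1369 peaks of 1 kb or more, 55.0% did. A longer interval also has more chance to meet any other interval, and the part of this in the rise was not tested. In percentage points the rise was smaller for the other marks. It went from 75.4% to 96.3% for DMSO H3K27ac, from 54.5% to 86.6% for ACBI H3K27ac and from 38.0% to 45.6% for H3K4me3. DMSO H3K27ac had no room for a rise as large as that of BRG1, so nothing is read from that order. The share of peaks in clusters was 29.0% under 250 bp, 28.2% from 250 to 500 bp, 30.9% from 500 to 1000 bp and 42.9% at 1 kb or more.

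Clustered and single peaks had nearly the same median width, 413 and 403 bp. The difference of 10 bp had an interval of -0.817 to 24.4 bp, which holds both signs. Off H3K4me3 the median was 404 bp for clustered and 364 bp for single peaks, with an interval of the difference of 25.1 to 55.8 bp. On H3K4me3 it was 429.5 and 441 bp, and the interval of -30.8 to 8.66 bp held both signs. The upper tail did differ: 9.77% of clustered peaks, 6.24% of paired peaks and 5.31% of single peaks reached 1 kb. Of the 80 peaks of 2 kb or more, 50 were clustered and 17 were single.

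RUNX1 peaks were spaced very unevenly. The gap between a peak and the next on its chromosome, from end to start, had a median of 30754 bp (interval 29817 to 31925) over 19869 gaps, but a mean of 147841 bp, 4.81 times the median. Of the gaps, 14.4% were at most 1 kb long, 24.3% at most 5 kb, 34.7% at most 12.5 kb and 73.8% at most 100 kb. At the far end, 587 gaps (2.95%) exceeded 1 Mb, and the longest spanned 25018627 bp.

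The median RUNX1 gap was shorter than those of H3K4me3 and BRG1. The median gap was 52126.5 bp for H3K4me3 and 114960 bp for BRG1, and 26.1% and 14.9% of their gaps were within 12.5 kb. At the short end RUNX1 and H3K4me3 did not keep this order: 14.4% and 14.6% of their gaps were within 1 kb, and the 10th percentile of the gaps was 451 and 274 bp. These lists also hold fewer peaks, which lengthens their gaps, and the part of peak number was not tested. The H3K27ac lists, from broad peak calling and with 90495 peaks under DMSO and 52967 under ACBI, had median gaps of 3354 and 4794 bp. In shape, the ratio of mean to median gap was 4.38 for H3K4me3, 3.43 for BRG1, 9.49 for DMSO H3K27ac and 11.6 for ACBI H3K27ac. The RUNX1 ratio, 4.81, lay above those of H3K4me3 and BRG1, whose lists hold fewer peaks. It lay below those of H3K27ac, whose lists hold more. The part of peak number and of peak calling in this order was not tested.

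**Figure D1:**
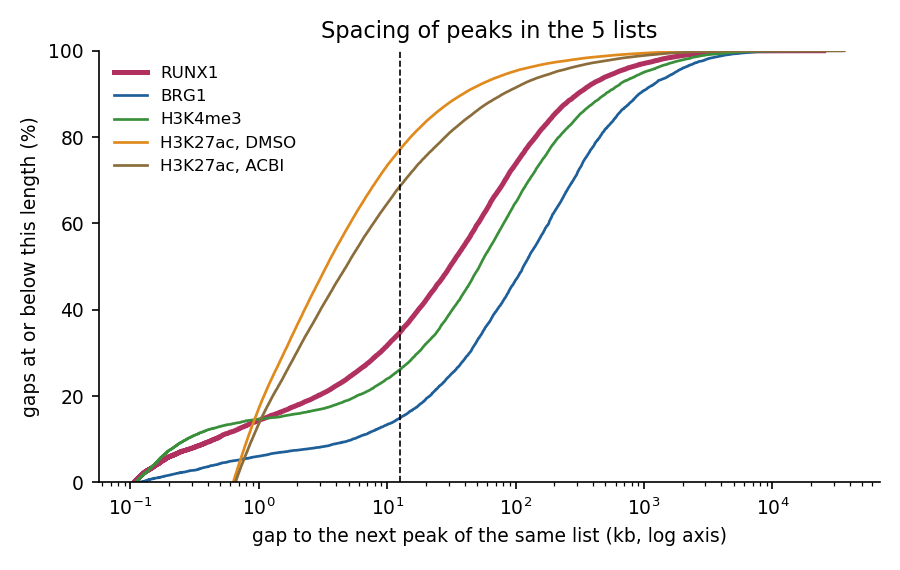
Cumulative share of gaps (percent, vertical axis) at or below each length (kb, log axis) between neighbouring peaks of the same list, 1 line per list, with a dashed line at the stitching distance of 12.5 kb. The RUNX1 line lies between the H3K27ac lines and the BRG1 line at that distance, at 34.7% of its gaps, against 77.0% for DMSO H3K27ac and 14.9% for BRG1.

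The chromatin at the gaps differed with their length. Of the 1180 RUNX1 gaps of at most 200 bp, 50.3% had H3K4me3 on the peaks at both ends, and 87.6% lay wholly inside DMSO H3K27ac. Both ends were on H3K4me3 for 24.8% of the 702 gaps between 1 and 2 kb, for 15.8% of the 1264 between 2 and 5 kb and for 18.01% of the 2066 between 5 and 12.5 kb. It was 25.6% for the 12979 gaps over 12.5 kb, about as at 1 to 2 kb. The share was thus lowest at gaps of 2 to 12.5 kb. Both ends of a short gap can lie in the same H3K4me3 peak, as these had a median width of 1420 bp. The part of this in the order was not tested. The share of gaps wholly in H3K27ac was 35.7% between 2 and 5 kb and 9.39% between 5 and 12.5 kb. This share has to be lower for longer gaps, since DMSO H3K27ac peaks were themselves short (median 741 bp, upper quartile 1576 bp), and nothing is read from that order.

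Some RUNX1 peaks stood far from any other. The nearest RUNX1 peak was more than 100 kb away for 2060 peaks (10.4%), more than 500 kb away for 221 and more than 1 Mb away for 77. Their median width was 382.5, 368 and 355 bp, below that of all RUNX1 peaks. Of the peaks more than 100 kb from another, 71.3% (69.3 to 73.3) lay in DMSO H3K27ac, against 79.0% of all single peaks. The share was 64.7% (58.0 to 71.0) of those more than 500 kb away and 67.5% (55.9 to 77.8) of those more than 1 Mb away. H3K4me3 lay on 45.2%, 38.5% and 39.0% of these peaks.

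The most isolated peak, chrX:30907306-30907749, lay 5550115 bp from the next and overlapped H3K4me3, BRG1 and DMSO H3K27ac, but no ACBI H3K27ac. The peaks at chr9:44118815-44118989 and chrX:88812216-88812390 were 5446024 and 4553104 bp from another RUNX1 peak. Both had the minimum width of 175 bp and lay off H3K4me3 and BRG1, and H3K27ac covered both in each condition.

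Peaks at most 12.5 kb apart were then joined into 13003 units. A unit of 1 peak is called single, a unit of 2 a pair and a unit of 3 or more a cluster. The 1540 clusters held a mean of 3.90 peaks and most were small: 883 had 3 peaks, 317 had 4, 166 had 5, 74 had 6 and 49 had 7. A further 22 had 8 peaks, 12 had 9, 5 had 10, 7 had 11 and 4 had 12, and the largest had 18. The same joining placed 7.63% of BRG1 peaks in 172 clusters and 17.4% of H3K4me3 peaks in 605, and 81.5% of DMSO H3K27ac peaks in clusters. The lists differ in peak number and settings, and the part of this in these shares was not tested.

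The clustered share changed with the joining distance and with how neighbouring peaks were counted. It was 17.4% (976 clusters) with 5 kb and 45.1% (1984 clusters) with 25 kb. Many clusters were built in part from peaks less than 1 kb apart, which made up 39.3% of the 4471 gaps inside clusters. With such peaks merged into 1 before joining, 832 clusters remained, holding 17.7% of the 17035 merged peaks. Among the 7167 peaks of at least 500 bp alone, 253 clusters held 12.2%.

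The clusters were compact. Their span from first start to last end had a median of 10847.5 bp with quartiles of 5548 and 16353.5 bp, and ran from 812 to 79851 bp. The 1540 spans added up to 18.7 Mb, of which RUNX1 peaks covered 3.12 Mb. The gaps inside clusters had a median of 1969 bp, with quartiles of 422.5 and 5990.5 bp.

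Clusters were mostly but not wholly acetylated. Under DMSO, H3K27ac covered a median of 63.4% of a cluster's span (quartiles 33.9% and 95.4%), and it covered 341 clusters completely and 22 not at all. In 1144 clusters (74.3%) every RUNX1 peak lay in DMSO H3K27ac, and in 24 none did. Only 387 clusters (25.1%) had all their peaks inside a single DMSO H3K27ac peak, so most clusters joined RUNX1 peaks across several acetylated stretches or across ground without a called stretch.

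Promoter-marked and unmarked clusters were alike in size. At least 1 peak lay on H3K4me3 in 889 clusters (57.7%, 55.2 to 60.2), all peaks did in 252, and none did in 651. The clusters with H3K4me3 had a median span of 10851 bp and a mean of 3.94 peaks, and those without it 10816 bp and 3.86 peaks. BRG1 lay on at least 1 peak of 65.0% (61.8 to 68.2) of the clusters with H3K4me3 and of 54.5% (50.6 to 58.4) of those without. Of the 172 BRG1 clusters, 122 (70.9%) overlapped the span of a RUNX1 cluster. Conversely, 122 of 1540 RUNX1 clusters (7.92%) overlapped a BRG1 cluster. These shares have no value over all BRG1 peaks or all RUNX1 units beside them, so neither is read as particular to clusters.

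Within a cluster, the widest peak and the others differed in their marks. The widest peak of each cluster, with a median of 746 bp, overlapped BRG1 in 41.8% (39.3 to 44.3) of clusters, against 17.7% (16.6 to 18.9) of the other clustered peaks, whose median was 333 bp. It also lay more often on H3K4me3 (39.5% against 32.8%) and in DMSO H3K27ac (93.5% against 88.1%). These peaks were picked by width. Among all RUNX1 peaks, BRG1 lay on 25.9% of those of 250 to 500 bp and on 43.0% of those of 500 to 1000 bp. The part of width in the differences within clusters was not tested. Inner and end peaks differed less. Of the 2931 inner peaks, 91.0% lay in DMSO H3K27ac and 75.7% in ACBI H3K27ac, and of the 3080 peaks at the ends of clusters 88.1% and 70.6% did. Every cluster has as many end peaks as any other, so inner peaks come more from large units. ACBI H3K27ac lay on 68.6% of peaks in units of 3 and on 86.0% in units of 10 to 18. The part of unit size in this difference was not tested.

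The cluster with the most peaks was also the one with the widest span, and had the lowest H3K27ac cover of the 10 clusters with most peaks. It lay at chr15:70717095-70796945, over 79851 bp, and held 18 RUNX1 peaks with a median gap of 2638 bp between them. None of the 18 lay on H3K4me3 and only the first, at chr15:70717095-70718155, overlapped BRG1. H3K27ac covered 21.4% of the span under DMSO and 5.21% under ACBI, and 8 of the 18 peaks lay in it under DMSO and 5 under ACBI. The acetylated peaks were at one side: the 6 leftmost peaks all lay in DMSO H3K27ac, whereas of the other 12 only chr15:70771369-70771707 and chr15:70772218-70773235 did. The widest peak of the cluster, 2543 bp at chr15:70783544-70786086, overlapped none of BRG1, H3K4me3 and H3K27ac.

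**Figure D2:**
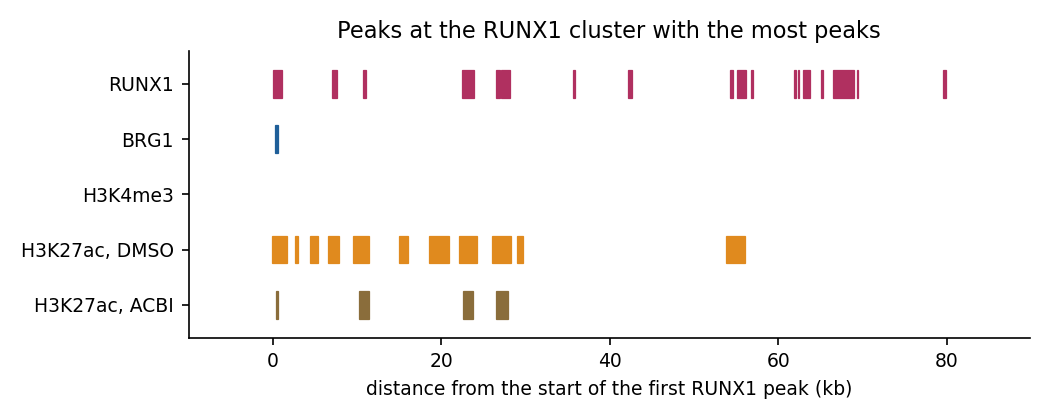
Positions of the peaks of each list (rows) along the RUNX1 cluster with the most peaks, as distance in kb from the start of its first RUNX1 peak; each bar is 1 peak, drawn to scale with a thin outline. The 18 RUNX1 peaks run over the whole span, DMSO H3K27ac lies mostly in the left part, 4 ACBI H3K27ac peaks remain there, and the H3K4me3 row is empty.

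The next 9 clusters held 12 peaks (4 clusters) or 11 (5 of the 7 such clusters, those with most length in RUNX1 peaks), and DMSO H3K27ac covered most of the span of all but 1 of them. At chrX:128867068-128915701 all 12 peaks lay in DMSO H3K27ac, which covered 93.0% of the 48634 bp span, and 84.8% of it was covered under ACBI. At chr1:198976465-199011716 all 12 lay in H3K27ac in both conditions, and 6 of them overlapped BRG1, the most among these 10 clusters. The cover of this cluster was 91.3% under DMSO and 92.4% under ACBI. At chr21:40351298-40389320, with 12 peaks, it was 85.3% and 66.1%.

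The last cluster of 12, chr19:12868336-12917740, differed from these: 8 of its peaks lay on H3K4me3, its widest peak measured 779 bp and H3K27ac covered 32.0% of its 49405 bp under DMSO and 24.2% under ACBI. Among these clusters of 11, chr7:150053557-150076545 also had 8 peaks on H3K4me3. It was the shortest of the 10, at 22989 bp, and DMSO H3K27ac covered all of it. The clusters at chr14:98633525-98677321 and chr17:32687567-32728776 had no peak on H3K4me3, and their cover was 98.2% and 79.8% under DMSO and 93.4% and 57.5% under ACBI.

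The other clusters of 11 named here lay at chr17:75415699-75471431 and chr1:165796714-165849331. The first was covered completely under DMSO and to 98.1% under ACBI. It lay inside a DMSO H3K27ac peak of 98379 bp, chr17:75381982-75480360, which held 16 RUNX1 peaks, the most of any H3K27ac peak. The second was covered to 87.6% and 82.6%. Both are also among the 5 clusters of widest span, with chr15:70717095-70796945, chr19:1848276-1905668 (8 peaks over 57393 bp) and chr10:74007882-74061835 (10 peaks over 53954 bp), where DMSO H3K27ac covered 43.8% and 22.9%.

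The clusters in which RUNX1 peaks filled most of the span were short. The densest, chr11:58345177-58347436, had 3 peaks over 2260 bp that covered 87.7% of it, all on H3K4me3. The second, chr8:105879028-105881103, had 3 peaks over 2076 bp, off H3K4me3 and wholly inside H3K27ac in both conditions. The third, chr1:205253875-205257892, had 4 peaks that covered 85.6% of 4018 bp and overlapped no H3K27ac peak in either condition, though 1 of them overlapped BRG1. The last of these 5 were chr1:235666702-235668908, with all 3 peaks on H3K4me3, and chr10:102267801-102271253, with none.

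Broad acetylated domains and RUNX1 clusters overlapped in part. Of the 970 DMSO H3K27ac peaks of 10 kb or more, 383 (39.5%, 36.4 to 42.6) met a RUNX1 cluster and 270 (27.8%) held no RUNX1 peak at all. In the other direction, 359 of the 1540 clusters (23.3%) met such a domain. Of the H3K27ac peaks that held RUNX1, 10572 held 1 RUNX1 peak, 1822 held 2 and 663 held 3 or more. Their median width was 1844, 3356 and 8588 bp, against 741 bp over all DMSO H3K27ac peaks. A longer H3K27ac peak also has more room for RUNX1 peaks, and the part of length in these counts was not tested. The shares of broad domains have no value over all DMSO H3K27ac peaks beside them, so none is read as particular to broad domains.

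Along the genome, RUNX1 peaks were densest on the chromosomes with most H3K27ac. Their density was 6.43 peaks per Mb over all sequences, with each chromosome taken as long as the end of its last peak in any list. That length counts all positions from the chromosome's start, also any without sequence, as do the gaps given above and the 1 Mb windows below. Among the autosomes and X the density was highest on chromosomes 19 (17.4 per Mb), 17 (13.2) and 22 (8.90) and lowest on X (3.35), 4 (4.13) and 13 (4.52). The order of close values, such as those of chromosomes 13 and 18 (4.68), is not firm with lengths taken in this way. The Y held 27 peaks (0.455 per Mb) and is left out of the ranges and counts by chromosome that follow. Chromosome 19 had 2.70 times (2.55 to 2.87) the density over all sequences. The density followed that of the other lists over the 23 chromosomes (autosomes and X), with a Spearman correlation of 0.93 with BRG1, 0.93 with H3K4me3 and 0.95 with DMSO H3K27ac (Pearson 0.96, 0.97 and 0.94). Without chromosomes 17 and 19, the farthest from the median in each, the Pearson values were 0.87, 0.90 and 0.92. These are descriptions over 23 chromosomes of the same genome, and no p-value was taken from them.

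Set against acetylated length, the order changed. RUNX1 had 156 peaks per Mb of DMSO H3K27ac over all sequences, and the values for the autosomes and X ran from 90.3 on chromosome 22 to 244 on X, a ratio of 2.70 against 5.19 for peaks per Mb of chromosome. The X, lowest of these by length, was highest by acetylated length, and chromosome 22 went from the third highest to the lowest. Chromosome 19 had 158 peaks per Mb of H3K27ac, close to the value over all sequences, and chromosomes 17, 4 and 13 had 137, 179 and 189.

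**Figure D3:**
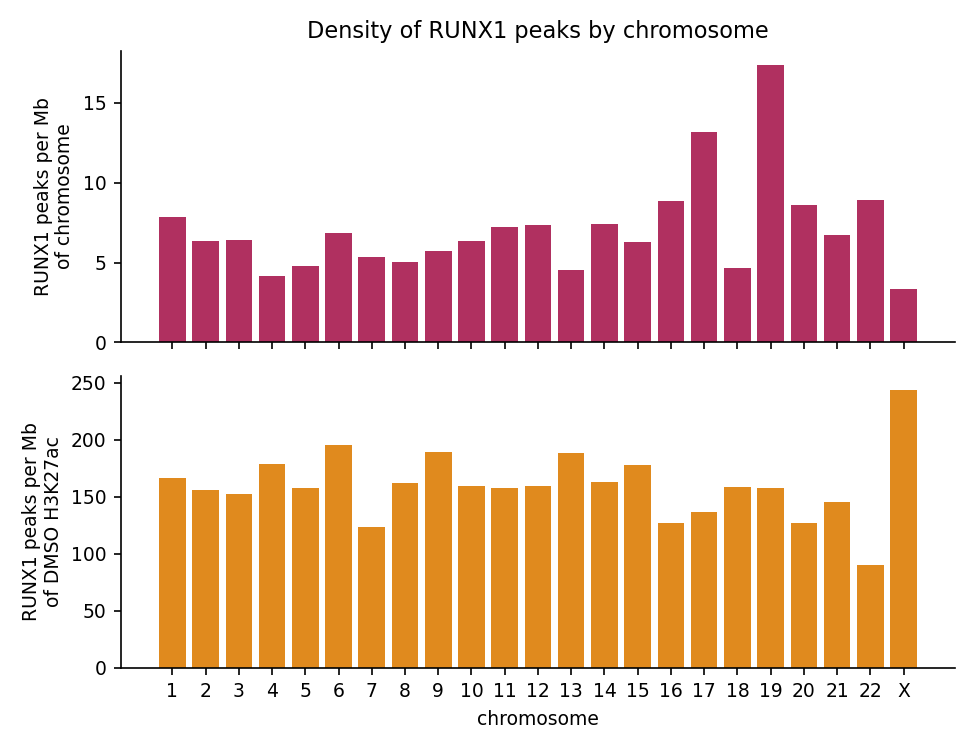
RUNX1 peaks per Mb of chromosome (upper bars) and per Mb of DMSO H3K27ac (lower bars) for the autosomes and X. Chromosome 19 stands highest in the upper bars at 17.4 and is near the value over all sequences (156) in the lower bars at 158, while X goes from the lowest at 3.35 to the highest at 244.

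The share of RUNX1 peaks in clusters varied less between the autosomes and X, from 24.6% on X to 36.3% on 17 (11.1% of the 27 peaks on Y), and the median width ran from 380 to 428 bp. On a finer scale, 2261 of 3109 windows of 1 Mb held a RUNX1 peak. The 310 windows with most RUNX1 peaks held 38.1% of them. Counted in the same way, each in its own fullest windows, the share was 39.3% for BRG1 and 43.7% for H3K4me3. For H3K27ac it was 37.6% under DMSO and 43.5% under ACBI, so RUNX1 did not stand out in this. The fullest window for RUNX1 was chr16:11000001-12000000 with 47 peaks, 32 of them clustered. It was followed by chr19:47000001-48000000 with 45 and chr3:46000001-47000000 with 44. The chromosome 3 window had only 1 of its peaks on H3K4me3, against 19 in the chromosome 19 window and 8 in that of chromosome 16. The windows chr14:106000001-107000000 and chr19:2000001-3000000 held 43 each, with 6 and 28 on H3K4me3.

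The marks were next compared between clustered and single RUNX1 peaks. H3K4me3 lay on 46.0% (45.0 to 47.1) of single, 48.1% (46.6 to 49.5) of paired and 34.5% (33.3 to 35.8) of clustered peaks. The difference between clustered and single peaks was -11.5 percentage points (-13.1 to -9.89, from the intervals of both shares), and it was negative on all 23 chromosomes, between -28.5 on 22 and -2.69 on 13. Pairs did not lie between the other classes. Merging peaks within 1 kb first widened the difference to -18.7 points, and joining within 5 kb narrowed it to -7.41 points.

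H3K27ac went the other way. Under DMSO it lay on 79.0% (78.1 to 79.8) of single, 85.7% (84.7 to 86.7) of paired and 89.5% (88.7 to 90.3) of clustered peaks, a difference of 10.6 points (9.40 to 11.7) that was positive on all 23 chromosomes. The difference lay off the promoter mark. On H3K4me3 nearly all peaks were acetylated, 96.4% of single and 96.2% of clustered ones, and off H3K4me3 64.1% (62.7 to 65.4) of single, 76.7% (75.02 to 78.4) of paired and 86.0% (84.8 to 87.0) of clustered peaks were. The share of peaks with none of H3K4me3, BRG1 and DMSO H3K27ac was accordingly 17.7% among single, 11.3% among paired and 8.58% among clustered peaks.

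BRG1 was less frequent at clustered RUNX1 peaks, and this rested on the promoter-marked peaks. It lay on 34.1% (33.1 to 35.0) of single, 29.0% (27.7 to 30.3) of paired and 23.9% (22.8 to 25.01) of clustered peaks, a difference of -10.1 points (-11.6 to -8.68) with the same sign on all 23 chromosomes. On H3K4me3, the shares were 51.1% (49.6 to 52.7) of single and 34.2% (32.2 to 36.3) of clustered peaks, 16.9 points apart (interval of clustered minus single -19.4 to -14.3). Off H3K4me3 they were 19.5% and 18.4%, a difference of -1.05 points (-2.71 to 0.615), positive on 10 chromosomes and negative on 13. When peaks within 1 kb were merged first, the differences were -11.8 points on H3K4me3 and -0.113 points off it. Among peaks of like width on H3K4me3 the difference was -16.4 points. These are shares of peaks: counted by cluster, BRG1 lay on at least 1 peak in 933 of 1540 clusters (60.6%, 58.1 to 63.0). A cluster has more peaks to meet BRG1 than a single unit has, so that share is not set against the 34.1%.

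The shares changed with the number of peaks in the unit rather than only between single and clustered peaks. H3K4me3 lay on 39.8% of peaks in units of 3, 28.5% in units of 5 to 6 and 21.2% (15.7 to 27.7) in units of 10 to 18. DMSO H3K27ac lay on 87.8%, 90.3% and 92.7% (88.1 to 96.0) of them, and ACBI H3K27ac on 68.6%, 73.5% and 86.0% (80.3 to 90.6). The rise was not steady: ACBI H3K27ac lay on 75.8% of peaks in units of 4, above the 73.5% in units of 5 to 6. BRG1 lay on 34.1% of single peaks and on 26.7%, 21.8% and 23.8% of peaks in units of 3, 4 and 5 to 6. In units of 7 to 9 it lay on 18.02% (15.1 to 21.3), and on 19.7% (14.3 to 26.0) of the 193 peaks in the largest units. The 193 peaks come from 5 units of 10, 7 of 11, 4 of 12 and 1 of 18, and the intervals take them as independent. Off H3K4me3 the BRG1 share was 19.5% (18.4 to 20.6) at single peaks, 18.6% in units of 3, 20.3% in units of 5 to 6, 14.8% (11.6 to 18.3) in units of 7 to 9 and 18.4% (12.6 to 25.5) in the largest.

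**Figure D4:**
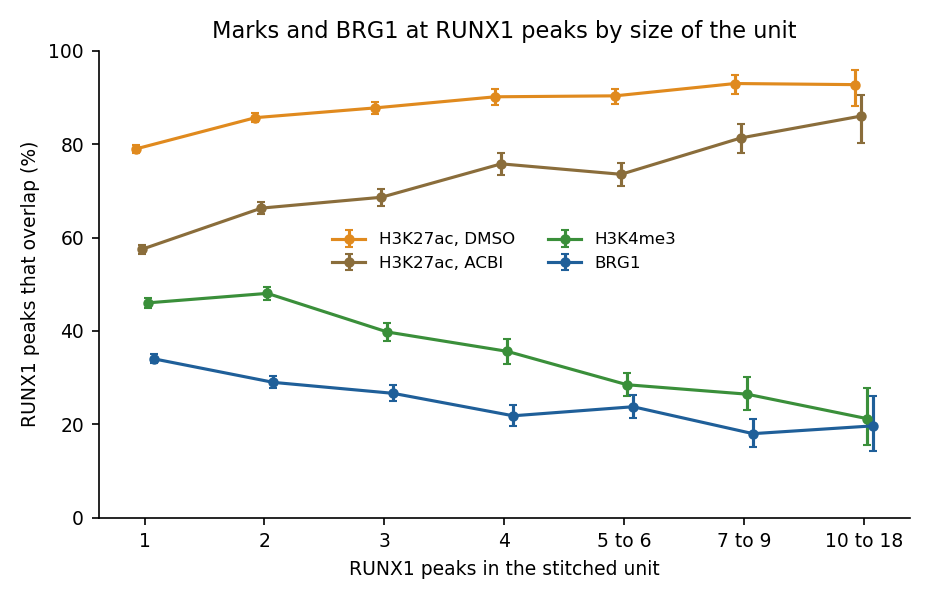
Share of RUNX1 peaks that overlap each mark or BRG1 (percent) by the number of RUNX1 peaks in their unit, with exact 95% intervals as bars. Both H3K27ac lines are higher in large units (92.7% and 86.0% at 10 to 18 peaks) than at single peaks (79.0% and 57.5%), and the H3K4me3 line is lower (21.2% against 46.0%).

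Peaks off the promoter mark also differed in how far from it they lay. The nearest H3K4me3 peak was a median of 80386.5 bp away from single, 48640 bp from paired and 30903 bp from clustered RUNX1 peaks without H3K4me3. Within 12.5 kb of an H3K4me3 peak were 6.60% of these single, 24.4% of paired and 33.6% of clustered peaks. By the joining itself, members of the 889 clusters with a peak on H3K4me3 lie near that mark, and the part of this in the distances was not tested.

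Finally, the H3K27ac of RUNX1 peaks was compared between DMSO and ACBI, counting a peak as kept when it lay in H3K27ac under both. Of the RUNX1 peaks in DMSO H3K27ac, 72.0% (70.9 to 73.0) of single, 76.8% (75.5 to 78.1) of paired and 81.1% (80.0 to 82.1) of clustered ones were kept, a difference of 9.07 points (7.58 to 10.6) between clustered and single peaks, positive on all 23 chromosomes. Off H3K4me3 the shares were 60.8%, 69.0% and 79.4%, and on H3K4me3 80.7%, 83.6% and 83.8%. Off H3K4me3, clustered peaks were kept more often both with BRG1 (89.7% against 76.1% of single peaks) and without it (76.8% against 55.6%). On H3K4me3 this held with BRG1 (81.4% against 75.3%), while without BRG1 the shares were 85.1% (83.1 to 87.0) of clustered and 86.4% (84.8 to 87.9) of single peaks. The depth of both H3K27ac libraries is unknown, so a lost peak is one not reported under ACBI, which is not the same as a loss of the mark.

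This difference turned around once the width of the H3K27ac peak was taken into account. Clustered RUNX1 peaks lay in wider H3K27ac peaks, with a median of 4504 bp against 2526 bp for pairs and 1859 bp for single peaks. Compared within 10 bins of that width, 71.7% of clustered and 77.6% of single peaks were kept, a difference of -5.88 points, and off H3K4me3 it was -3.03 points. In H3K27ac peaks of 1 to 2 kb, 60.8% (57.1 to 64.4) of clustered and 72.4% (70.6 to 74.1) of single peaks were kept. The order was the same under 1 kb (26.3% against 31.8%) and from 2 to 3 kb (78.3% against 86.3%), and the shares came close together from 10 kb on (97.6% against 95.7%). Off H3K4me3 the order was not uniform: 20.7% against 19.3% under 1 kb and 71.1% against 81.8% from 2 to 3 kb. In these lists, the share kept at clusters and the width of the H3K27ac peaks around them cannot be told apart.

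**Figure D5:**
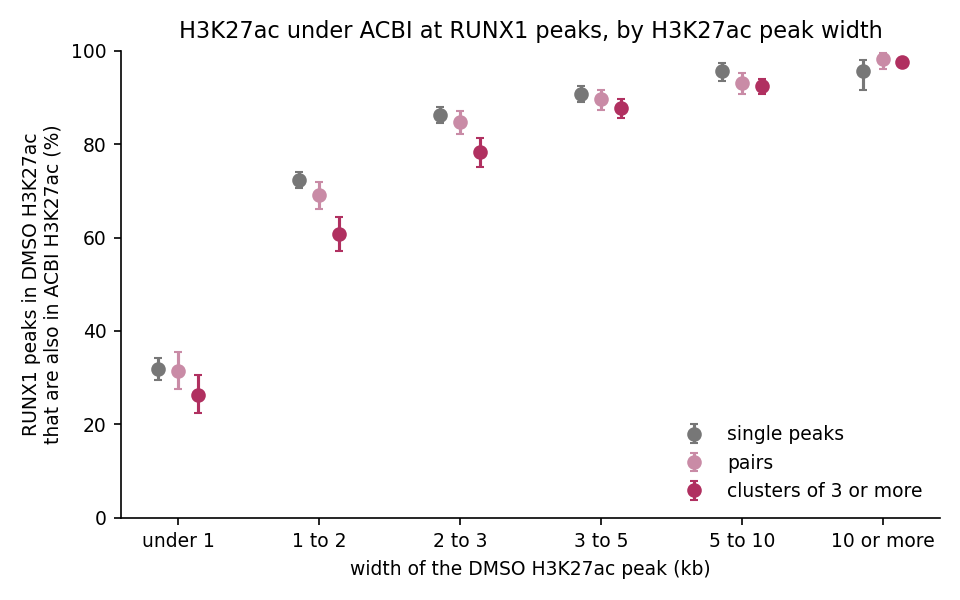
Share of RUNX1 peaks in DMSO H3K27ac that also lay in ACBI H3K27ac (percent), by the width of the DMSO H3K27ac peak around them (kb), for single peaks, pairs and clusters, with exact 95% intervals. All classes are at 31.8% or less under 1 kb and at 95.7% or more from 10 kb on, and clustered peaks lie below single peaks in each width class under 10 kb.

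The same regions were also measured by acetylated length. Over the spans of the 1540 clusters H3K27ac covered 10.5 Mb under DMSO and 7.66 Mb under ACBI, a ratio of 0.731. The clusters held 8.24% of the DMSO H3K27ac length. Neither this ratio nor the counts that follow have a value over all H3K27ac beside them, so none is read as particular to clusters. The median share of a cluster's span covered was 63.4% under DMSO and 39.1% under ACBI, and ACBI H3K27ac covered 212 clusters completely and 130 not at all. In 868 of the 1516 clusters with a RUNX1 peak in DMSO H3K27ac (57.3%) all such peaks were kept, in 527 (34.8%) some were and in 121 (7.98%) none was.

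Counted over the H3K27ac peaks themselves, in classes of their width, those of 2 kb or more that held more RUNX1 peaks had more of their length acetylated under ACBI. For DMSO H3K27ac peaks of 3 to 5 kb, 46.6% of the length was covered under ACBI where they held no RUNX1 peak, 58.3% with 1, 62.4% with 2 and 70.1% with 3 or more. From 5 to 10 kb the values were 55.2%, 63.4%, 68.8% and 72.7%, and from 10 kb on 72.2%, 76.0%, 78.0% and 85.9%. From 1 to 2 kb the order did not hold throughout, with 28.8%, 50.8%, 53.6% and 52.3%, the last over 23 H3K27ac peaks. The median width also rose with the number of RUNX1 peaks within these classes, from 3645 to 4114 bp in the first and from 12519 to 16801 bp in the last, and its part in the rise was not tested. These classes are broader than the 10 bins used for the share kept, and the 2 measures are not directly comparable.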

How the data were processed

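The lists deposited by the authors have 4 columns, namely the chromosome, start and end of a peak and its name; the values used are these positions. The submitters' processing notes name hg19, MACS2 and SEACR. RUNX1 peaks came from MACS2 and H3K27ac peaks are broad peaks at q below 0.01, per the file headers. The aligner, other thresholds and the use of controls are not given in the sources.

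Gaps, stitched units (gap of at most 12.5 kb) and overlaps (at least 1 bp) were computed with pandas 2.3.3, numpy 2.4.6 and scipy 1.17.1 under Python 3.11.15; matplotlib 3.10.9 drew the figures. The code was tested on simulated data and checked against bedtools 2.31.1, with 0 differences. Intervals of differences combine those of both shares; that of a median gap comes from its order statistics. Like width means the same of 10 bins of about equal size.

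Named clusters are the 10 with most peaks, the 5 with most of their span covered by RUNX1 peaks and the 5 of widest span; named peaks are the 5 widest, the 3 widest single and the 3 most isolated. The named 1 Mb windows, the H3K27ac peak with most RUNX1 peaks and the peaks of the largest cluster were chosen after their values were seen. The members, classes and lists were chosen with earlier results of these data known. Gene lists were not used, for want of an hg19 annotation.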

Additional observations from a re-analysis of the deposited data

How the results depend on the processing

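The stitching distance, merging, minimum width, autosomes and X only, H3K4me3, 50% cover and RUNX1 width bins were alternatives set out at the start. Bins of H3K27ac width, peaks on H3K4me3 only and merged peaks split by H3K4me3 were chosen after seeing the data. Of 55 values, 25 lay inside the reported interval (for counts, within 1.5 times), 26 outside it with the same sign, and 4 changed sign; the cause was not tested. The 4 were the share kept within 10 bins of H3K27ac width (-5.88 points), within 50 bins (-5.86) and off H3K4me3 (-3.03), and the width difference on H3K4me3 (-11.5 bp). The interval of that width difference, -30.8 to 8.66 bp, held both signs. The clustered share and number of clusters came to 17.4% and 976 with 5 kb, 17.7% and 832 after merging, 12.2% and 253 for peaks of at least 500 bp, and 28.2% and 820 among peaks off H3K4me3 alone; with 25 kb the share was 45.1%. Clustered minus single, joining within 5 kb gave -7.41 points for H3K4me3, and within 25 kb 6.53 points for the share kept. Merging gave 73 bp for width, -18.7 points for H3K4me3, 8.03 for DMSO H3K27ac and 5.93 for the share kept. Off H3K4me3 the differences were 40 bp for width, 21.9 points for DMSO H3K27ac, -1.05 for BRG1 and 18.6 for the share kept. On H3K4me3 they were -16.9 points for BRG1 (-16.4 within width bins) and 3.14 for the share kept. After merging, BRG1 gave -11.8 points on H3K4me3 and -0.113 off it. With 50% of the peak covered, DMSO H3K27ac gave 11.9 points and the share kept 10.7. No paired analysis was possible because each group has 1 library. Depth is unknown, so what a deeper library would add to any list cannot be told.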
